A study of Mus musculus with 4 samples.

Results

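The respiratory chain and ATP synthase were followed in bone marrow stromal cells taken from 2 places in mouse bone, the trabecular bone area and the long bone area. Members were the genes whose probe sets on the array name that gene alone and whose symbol starts with Nduf, Uqcr, Atp5, Cox4i, Cox5, Cox6, Cox7 or Cox8, or is Sdha, Sdhb, Sdhc, Sdhd, Cyc1 or Cycs. This gave 92 of the 18193 genes measured, read by 184 probe sets. By complex they were 34 subunits and 8 assembly factors of complex I, 4 genes of complex II, 9 of complex III, cytochrome c, 19 of complex IV and 17 of complex V. The mice were adult NOD.CB17-Prkdc scid/J animals, whose scid mutation stops the making of mature B and T cells and which all samples share. The design text calls them recipients, but the sources used here do not give what they had received, their age in weeks or any pooling of animals. The sort kept marrow cells that carried CD51, an integrin chain, and lacked the blood lineage antigens, CD45, CD31 and Sca1, a gate the submitters use for osteoblasts. Each area has 2 arrays, called biological replicates in the labels, which do not name the animals, so that p-values may reflect technical spread alone.

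The respiratory chain sits in the inner mitochondrial membrane. Complexes I and II take electrons from NADH and succinate, complex III passes them through cytochrome c to complex IV, and complex IV gives them to oxygen. Complexes I, III and IV pump protons, and complex V, the ATP synthase, lets them flow back to make ATP. All members are nuclear genes, while some core subunits of each complex except II come from mitochondrial DNA. Bone-forming cells use both respiration and glycolysis, and respiration is known to increase as progenitors become osteoblasts.

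The values as deposited are on a log2 scale and centred, for each probe set, on its own median over the 4 arrays. They hold differences between arrays and no levels. A gene's value here is the mean of its probe sets, and every difference is trabecular minus long bone. Overlap means that the 2 trabecular values are not both above or both below the 2 long bone values. With 2 arrays on each side the smallest two-sided p of an exact permutation test is 0.333, so single genes were tested with limma, which pools the spread over all genes.

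Most members were modestly higher in the trabecular samples, and none passed the test. Of 92 members 77 were higher and 15 lower, and the median log2 difference was 0.27, with quartiles of 0.08 and 0.40. Over all genes the median was 0.03 and 54.6% were higher by any amount. No member passed limma's test at an adjusted p under 0.05 with Benjamini-Hochberg over 18193 genes, where 0% of all genes passed, and the lowest adjusted p of a member was 0.240. At an unadjusted p under 0.05 there were 20 members, all higher, against 10.8% of all genes higher and 4.62% lower. With no overlap between the areas there were 42 members higher, 45.7% of them against 29.9% of all genes. A single member, Ndufa4l2, was lower with no overlap, against 21.4% of all genes. No member differed by 2-fold, and the 13 that differed by at least 0.5 were all higher in the trabecular area.

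**Figure D1:**
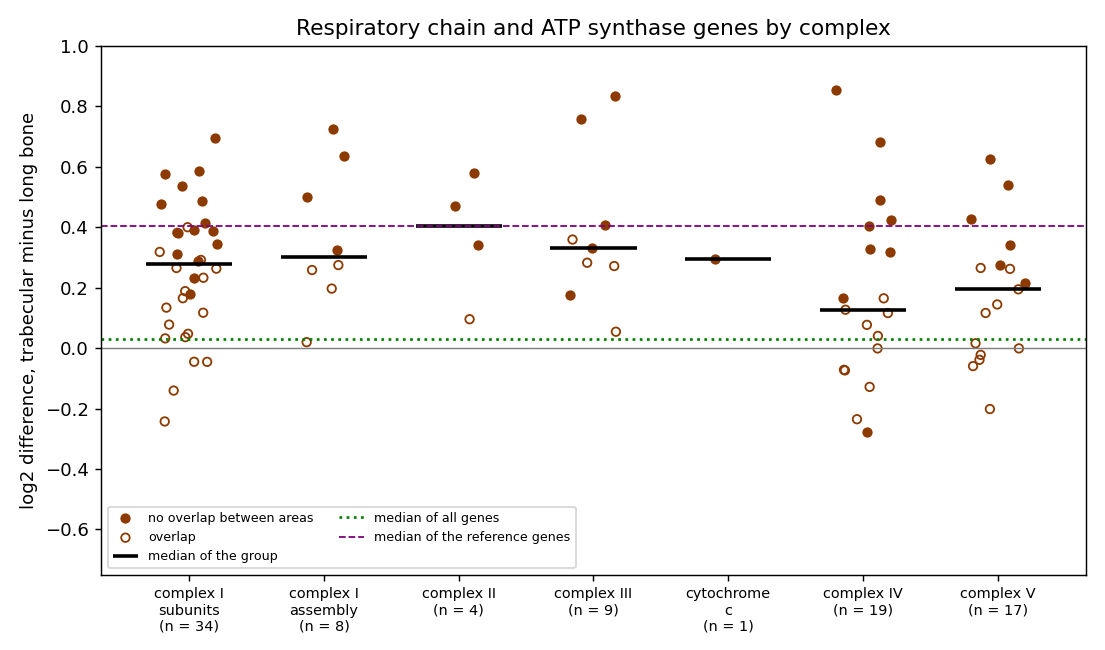
Log2 difference of each of the 92 genes, trabecular minus long bone, by complex, with filled points for genes whose arrays do not overlap between areas and open points for the others. Medians of the groups lie between 0.13 for complex IV and 0.41 for complex II, above the dotted median of all genes at 0.03. The dashed median of the reference genes lies at 0.40. With arrays centred on the reference genes every group median but that of complex II, at 0.003, is below 0. The median of all genes is then -0.37.

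The direction rests on how the arrays are scaled. Of the 9 reference genes listed for this comparison 7 were measured, 6 of them higher with no overlap, and their median difference was 0.40. Among them Gusb, a lysosomal enzyme, differed by 0.93, Ywhaz, a signalling adaptor, by 0.70, and Polr2a, the largest subunit of RNA polymerase II, by -0.24. With each array centred on the mean of these genes, the members' median was -0.14 and that of all genes was -0.37. Of 92 members 23 were higher, against 3156 of 18193 genes. With that scaling 7 members were higher with no overlap, a count not taken over all genes. The members still above 0 under it were led by Cox7c at 0.45, Uqcrfs1 at 0.43, Uqcrc1 at 0.36 and Ndufaf1 at 0.32. Such centring moves the difference of every gene by the same amount, so the distance between the members' median and that of all genes cannot change.

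Signal level moved with the difference as well. Levels were removed by the centring, but the numeric step of the stored values shows whether all arrays of a probe set lay at 8 and above before it. A probe set that crosses a level of 8 reads as lower. Of 180 member probe sets that could be read, 133 were at 8 and above, 73.9% against 33.8% of all probe sets. In that band 116 of the 133 were higher in the trabecular area, 87.2% against 69.4% of all single-gene probe sets there. Their median difference was 0.27 against 0.22. Those higher with no overlap were 59, 44.4% against 42.6%, a share close to the background. Over all single-gene probe sets at levels of 4 to 8 the median was -0.03. The 47 member probe sets below 8 had a median of 0.19, with 31 higher. The part of signal level in the members' shift was not tested beyond these values.

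**Figure D2:**
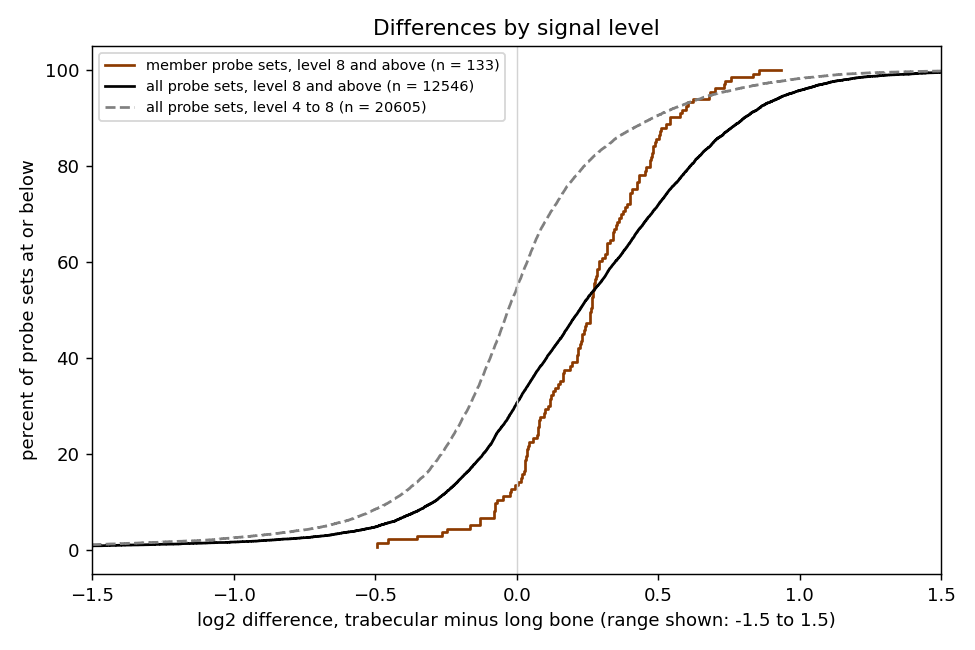
Cumulative percent of probe sets against the log2 difference, trabecular minus long bone, for the 133 member probe sets at a level of 8 and above, for all 12546 single-gene probe sets at that level, and for 20605 at levels of 4 to 8. The member curve and the curve of all bright probe sets have medians of 0.27 and 0.22. The dimmer probe sets have a median of -0.03. These values are on the deposited scaling. Centring on the reference genes moves all curves, and puts the median of the 92 member genes at -0.14 and that of all genes at -0.37.

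Trabecular array 2 and long bone array 1 carried much of the distance between the areas. The members' median was 0.02 on trabecular array 1, 0.20 on trabecular array 2, -0.21 on the first long bone array and -0.02 on the second. Of 92 members 61 were highest on trabecular array 2 and 54 were lowest on long bone array 1. Over all 18193 genes these counts were 4278 and 4471. Trabecular array 1 against long bone array 2 gave a median difference of 0.08, with 50 members higher. All genes had a median of 0.02 there, with 9473 of 18193 higher, a share close to that of the members. Trabecular array 2 against long bone array 1 gave 0.50, with 86 members higher. All genes had a median of 0.03 for that pair, with 9899 higher. Without trabecular array 2 the median difference between areas was 0.15, and without long bone array 1 it was 0.16. Without trabecular array 1 or long bone array 2 it was 0.38 in each case. Without trabecular array 2 there were 65 members higher, against 10131 of 18193 genes, and without long bone array 1 there were 61, against 9292. Leaving out trabecular array 1 gave 84 members higher, against 9541 genes. Leaving out long bone array 2 gave 85, against 10632.

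**Figure D3:**
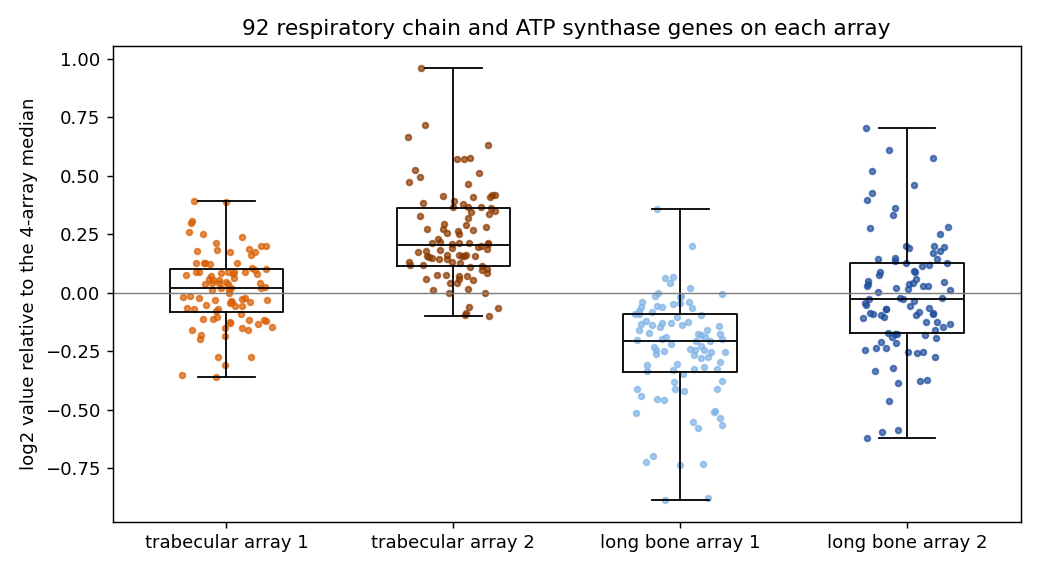
Log2 values of the 92 genes on each array relative to the 4-array median, with the median and quartiles as a box and whiskers to the lowest and highest gene. Array medians run from -0.21 on long bone array 1 to 0.20 on trabecular array 2, and the boxes of trabecular array 1 and long bone array 2 lie between them; on a scaling by the reference genes the areas change places, with a median difference of -0.14.

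Other measures of the arrays and cells stood beside this shift. Long bone array 2 had 2493 probe sets that lay 2-fold or more from their median, while the others had 383 to 848. The 5′ minus 3′ value of the Gapdh control was -1.16 there and between -0.09 and 0.31 elsewhere. That of the Actb control did not set long bone array 2 apart, at -0.04. It was 0.44 on trabecular array 1, -0.07 on trabecular array 2 and 0.07 on long bone array 1. The hybridisation controls, 9 spiked probe sets, had medians of -0.13 and -0.23 on the trabecular arrays and 0.22 and 0.23 on the long bone arrays. Of the osteoblast markers 7 of 9 were measured, all lower in the trabecular samples with no overlap, with a median of -0.96, and 4 had a probe set at a level of 8 and above on every array. All 10 chondrocyte markers were lower with no overlap, with medians of -1.53 and -1.51 on the trabecular arrays and 1.76 and 1.48 on the long bone arrays. The 6 reticular stroma markers had a median of -1.15, but their array medians were 0.10, -0.58, -0.07 and 1.69, and without long bone array 2 the difference was -0.21. Neutrophil markers, of which 8 of 10 had a probe set at 8 and above, differed by a median of 0.04. Over all genes 8811 of 18193 had such a probe set. Macrophage, osteoclast, erythroid, B cell, endothelial, muscle and adipocyte lists had medians between -0.14 and 0.06. Their single genes spread more widely, from -1.04 to 0.78 for macrophage and -0.73 to 1.52 for osteoclast markers. B cell markers ran from -1.23 to 0.29 and adipocyte markers from -2.07 to 0.09. A probe set at 8 and above was held by 4 of 8 macrophage, 1 of 8 osteoclast and 3 of 6 erythroid markers. The counts were 3 of 6 for B cell, 1 of 6 for endothelial, 2 of 8 for muscle and 1 of 5 for adipocyte markers. Cell cycle genes had a median of 0.06, with array medians of -0.20, 0.28, 0.13 and -0.24. In bulk samples fewer cells of a type and less RNA per cell cannot be told apart, and the part of these markers in the members' values was not tested.

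The promoters of the members were searched for the motifs of NRF1 and of GABPA, the DNA-binding part of nuclear respiratory factor 2, both known as regulators of nuclear genes of respiration. Promoters came from RefSeq on GRCm38.p6 and cover 250 bases before to 50 after the start, and 75 of 92 members matched, with 80 promoters. The NRF1 letters GCGCANGCGC were in 22.5% of these promoters, against 7.43% of the promoters of all genes tested and 4.60% of all promoters. The GABPA letters CCGGAAG were in 23.8%, against 13.0% and 8.86%. Neither motif contains the other, and both strands were searched for each. Members with the NRF1 letters had a median difference of 0.22, with 15 of 17 higher, and those without had 0.27, with 47 of 58 higher. Members with the GABPA letters had a median of 0.27, with 18 of 19 higher, against 0.26 and 44 of 56 higher. A match of letters is a description and not a bound site.

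The 250 bases before the start are shown for 3 members, those with the largest difference among members that hold a motif and do not overlap between areas. All lie on the minus strand and are written 5′ to 3′ along the gene, with the motif in capitals on whichever strand it reads. Ndufaf1 (chr2:119662835-119663084) has the GABPA letters starting 18 bases before the start. Atp5e (chr2:174464102-174464351) has them, on the opposite strand, 102 bases before it. Sdhd (chr9:50603850-50604099) holds both, NRF1 at 79 bases and GABPA, on the opposite strand, at 46 bases before the start.
Ndufaf1: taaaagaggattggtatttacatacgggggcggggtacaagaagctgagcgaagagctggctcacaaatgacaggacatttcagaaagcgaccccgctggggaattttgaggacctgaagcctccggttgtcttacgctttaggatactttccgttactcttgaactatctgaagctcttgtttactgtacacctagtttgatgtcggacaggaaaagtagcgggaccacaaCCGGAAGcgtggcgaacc
Atp5e: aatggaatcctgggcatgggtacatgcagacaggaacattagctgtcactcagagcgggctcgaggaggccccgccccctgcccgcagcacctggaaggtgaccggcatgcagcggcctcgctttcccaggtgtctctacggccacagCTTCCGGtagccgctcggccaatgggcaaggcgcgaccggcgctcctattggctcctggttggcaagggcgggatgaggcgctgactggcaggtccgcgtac
Sdhd: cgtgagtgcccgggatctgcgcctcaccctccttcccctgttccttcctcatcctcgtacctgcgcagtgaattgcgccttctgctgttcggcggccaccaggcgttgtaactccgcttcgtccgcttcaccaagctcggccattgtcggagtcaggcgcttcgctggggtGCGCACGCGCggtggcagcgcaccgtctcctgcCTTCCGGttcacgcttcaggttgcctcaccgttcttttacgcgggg

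Complex I, the NADH dehydrogenase, had 30 of its 34 subunits higher in the trabecular samples and 15 with no overlap, with a median difference of 0.28 that became -0.13 with arrays centred on the reference genes. Those with no overlap were 44.1% of the subunits, against 29.9% of all genes and 42.6% of all single-gene probe sets at 8 and above. Counts with no overlap in the groups below have the same background shares. The median was 0.16 without trabecular array 2 and 0.11 without long bone array 1. None passed the adjusted test and 7 had an unadjusted p under 0.05. The core subunits, which carry the flavin and the iron-sulfur clusters, had a median of 0.31 with 6 of 6 measured higher. The 28 accessory subunits around them had a median of 0.28 with 24 higher. Ndufa3, an accessory membrane subunit, read 0.30 and 0.48 on the trabecular arrays and -0.30 and -0.32 on the long bone arrays. Its log2 difference of 0.70 (SE 0.13, 95% interval 0.35 to 1.04) had an adjusted p of 0.240 in limma, and its 3 probe sets gave 0.49, 0.51 and 1.09. The areas lay well apart for this gene. Ndufa8, a disulfide-rich subunit on the intermembrane side, read 0.13 and 0.36 against -0.53 and -0.13, a difference of 0.58 (SE 0.20). Ndufa9, which helps to hold the peripheral arm on the membrane arm, differed by 0.59 (SE 0.23), with 0.09 and 0.41 against -0.09 and -0.58. For Ndufa7 the difference of 0.54 came with a low value of -0.72 on long bone array 1 and was 0.22 without it, and its probe sets ranged from 0.26 to 1.04.

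Among the core subunits Ndufs3, part of the arm that leads electrons to ubiquinone, read 0.13 and 0.32 against -0.38 and -0.13, a difference of 0.48 (SE 0.16). Ndufv1, which binds NADH and FMN, read 0.10 and 0.34 against -0.16 and -0.18, a difference of 0.39 (SE 0.14). Ndufs7, which holds the last iron-sulfur cluster before ubiquinone, differed by 0.41 (SE 0.19). Ndufs1 and Ndufv2, the other core subunits of the NADH module, stood near 0, at 0.03 (SE 0.13) and 0.05 (SE 0.21). Whether these genes of 1 module differ from each other was not tested. Ndufs4, an accessory subunit of the same region, had 4 probe sets that were all higher with no overlap, with a mean of 0.49 (SE 0.16).

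The 4 complex I subunits below 0 all overlapped between the areas. Ndufb2 read -0.31 and 0.10 against -0.33 and 0.61, a difference of -0.24 (SE 0.36), and its 3 probe sets ran from -0.63 to 0.03. Ndufc2 differed by -0.14 (SE 0.24), Ndufc1 by -0.05 (SE 0.27) and Ndufab1 by -0.05 (SE 0.17). Ndufb2, Ndufc1 and Ndufc2 are small membrane-arm subunits, and Ndufab1 is the mitochondrial acyl carrier protein. All 4 were highest on long bone array 2. Leaving it out gave 0.23 for Ndufb2, 0.19 for Ndufc1, 0.15 for Ndufc2 and 0.12 for Ndufab1. The 5 Ndufab1 probe sets went both ways, from -0.49 to 0.32. Ndufa6 had among the widest spreads, at -0.16 and 0.16 on the trabecular arrays against -0.73 and 0.57 on the long bone arrays.

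Complex I assembly factors, which build the complex and do not stay in it, lay higher in all 8 cases. There were 4 with no overlap, 50% against 29.9% of all genes. Their median was 0.30 (-0.10 with arrays centred on the reference genes). Without long bone array 1 the median was 0.16. Ndufaf1, which acts on the membrane arm and whose promoter is shown above, read 0.31 and 0.46 against -0.31 and -0.37. Its difference was 0.72 (SE 0.13, 95% interval 0.38 to 1.07, adjusted p 0.240 in limma). Ndufaf7, a methyltransferase, read 0.39 and 0.21 against -0.46 and -0.21, a difference of 0.63 (SE 0.15). Ndufaf2, a late-acting factor, read 0.09 and 0.57 against -0.25 and -0.09, a difference of 0.50 (SE 0.21), and Ndufaf5 differed by 0.33 (SE 0.18). These 4 genes separated the areas, and the other 4, between 0.02 and 0.27, did not. Of 10 probe sets of assembly factors 7 read at levels of 4 to 8. The 7 assembly genes outside the Ndufaf names had a median of 0.16, with 6 higher, 4 of them with no overlap and 0 called. Foxred1 was at 0.52 among these and Ecsit at -0.39.

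Complex II, succinate dehydrogenase, belongs to both the chain and the TCA cycle and has no subunit from mitochondrial DNA. All 4 genes were higher, 3 with no overlap, 75% against 29.9% of all genes. Their median of 0.41 was 0.003 with arrays centred on the reference genes. Sdhd, a membrane anchor, read 0.26 and 0.25 against -0.41 and -0.24, a difference of 0.58 (SE 0.13, 95% interval 0.23 to 0.93). Its trabecular arrays were nearly equal, while its 2 probe sets gave 0.93 and 0.23. Sdhb, the iron-sulfur subunit, read 0.21 and 0.15 against -0.18 and -0.15, a difference of 0.34 (SE 0.12). The other anchor, Sdhc, read 0.09 and 0.16 against -0.09 and -0.59, a difference of 0.47 (SE 0.21), or 0.22 without long bone array 2, but its probe sets did not match. The probe set read at 8 and above gave -0.08, and the dimmer one gave 1.02. Sdha, the flavin subunit that oxidises succinate, overlapped, with 0.02 and 0.10 against 0.06 and -0.13, a difference of 0.10 (SE 0.14). Its 2 brighter probe sets gave 0.32 and 0.39, and its 2 dimmer ones -0.22 and -0.11. The 4 complex II assembly factors were all higher, with a median of 0.16 and 0 called, 1 of them with no overlap.

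Complex III, the cytochrome bc1 complex, held 2 of the 3 members with the largest differences. All 9 genes were higher, 5 with no overlap, 55.6% against 29.9% of all genes. Their median was 0.33 (-0.07 with arrays centred on the reference genes). Without trabecular array 2 the median was 0.09. Uqcrfs1, the Rieske iron-sulfur protein that takes electrons from ubiquinol, read 0.39 and 0.33 on the trabecular arrays and -0.33 and -0.62 on the long bone arrays. Its difference of 0.83, a 1.78-fold higher signal, had an SE of 0.15, a 95% interval from 0.43 to 1.24 and an adjusted p of 0.240 in limma. Without long bone array 1 it was the 1 member called, with a difference of 0.98 and an adjusted p of 0.0390 in limma, in a fit that called 8.81% of all genes and rests on a single long bone array. Uqcrc1, a core subunit on the matrix side, read 0.25 and 0.63 against -0.25 and -0.38, a difference of 0.76 (SE 0.18, 95% interval 0.29 to 1.23). The trabecular arrays were apart from each other for this gene, yet both lay above the long bone arrays.

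Uqcrh, the hinge protein near cytochrome c1, read 0.10 and 0.41 against -0.20 and -0.10, a difference of 0.41 (SE 0.16). Uqcrq, a small membrane subunit, read 0.07 and 0.12 against -0.22 and -0.25, a difference of 0.33 (SE 0.12), over 4 probe sets from 0.01 to 0.70. Uqcrc2, the partner of Uqcrc1, separated the areas with a difference of only 0.17 (SE 0.13). Cyc1, cytochrome c1, rested on 1 array, with -0.09 and 0.57 against -0.17 and 0.09. Its difference of 0.28 (SE 0.26) was -0.05 without trabecular array 2. Uqcr11 had one of the widest spreads, -0.27 and 0.27 against -0.88 and 0.33. Of the complex III assembly genes 4 of 6 were higher, with a median of 0.14 and 0 called. Bcs1l, which inserts the Rieske protein into the complex, read 0.23 and 0.20 against -0.43 and -0.20, a difference of 0.53. Cytochrome c itself, Cycs, read 0.04 and 0.16 against -0.34 and -0.04, a difference of 0.29 (SE 0.16) that was -0.11 with arrays centred on the reference genes.

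**Figure D4:**
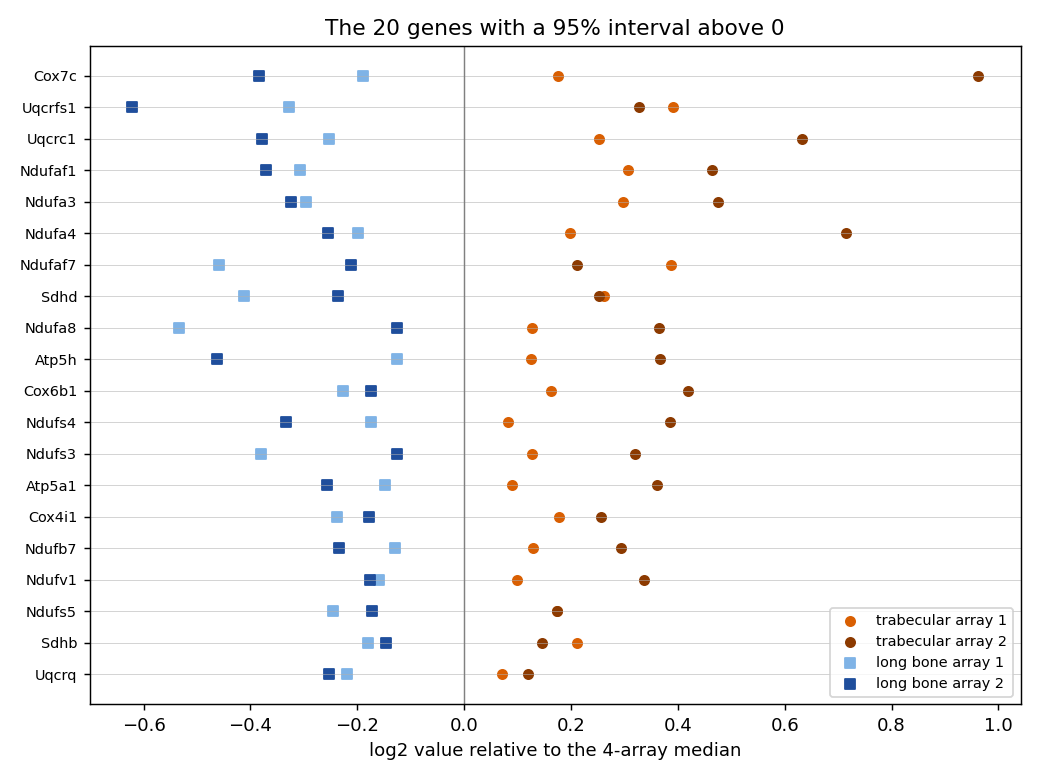
Log2 values on each array, relative to the 4-array median, of the 20 genes whose unadjusted 95% interval of the difference lies above 0, ordered by difference, with circles for trabecular and squares for long bone arrays. In all 20 genes both trabecular arrays lie above both long bone arrays, none passes the adjusted test, and with arrays centred on the reference genes the difference is above 0 in 15 of them and below 0 in 5.

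Complex IV, cytochrome c oxidase, was split between subunit forms made in most tissues and forms known for restricted tissues such as muscle, heart, lung or testis. Over 19 genes the median was 0.13, or -0.28 with arrays centred on the reference genes. Of these genes 13 were higher, 8 of them with no overlap, 42.1% against 29.9% of all genes. The median was 0.09 without trabecular array 2 and 0.05 without long bone array 1. The 11 widely expressed forms had a median of 0.33 with 10 higher and 8 without overlap. The 8 restricted forms had a median of -0.04, or 0.07 without long bone array 2, with 3 higher, 0 of them without overlap, and 1 lower without overlap. The split was made with values known, and the difference between the sets was not tested. Signal level went along with it, since 24 of 27 probe sets of the wide forms read at 8 and above, against 3 of 9 of the restricted forms.

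Cox7c, a small subunit in the membrane, had the largest difference of all members. It read 0.18 and 0.96 on the trabecular arrays and -0.19 and -0.38 on the long bone arrays, a difference of 0.86 (SE 0.29, 95% interval 0.07 to 1.64), or 1.81-fold. Trabecular array 2 was far the highest, and without it the difference was 0.46. Ndufa4, once placed in complex I and now known as a complex IV subunit, read 0.20 and 0.71 against -0.20 and -0.25, a difference of 0.68 (SE 0.21) that was 0.42 without trabecular array 2. Cox6b1, which faces the intermembrane space and joins the monomers of the dimer, read 0.16 and 0.42 against -0.23 and -0.17, a difference of 0.49 (SE 0.15). Cox4i1, the regulatory subunit that binds ATP, was the most even of these, with 0.18 and 0.26 against -0.24 and -0.18, a difference of 0.43 (SE 0.12, 95% interval 0.10 to 0.75). Cox7a2l, a factor that links complexes III and IV into a supercomplex, differed by 0.40 (SE 0.18), and its 3 probe sets ran from 0.35 to 0.46. Cox5b, which binds zinc, differed by 0.33 (SE 0.16), over 6 probe sets from 0.05 to 0.86. Its partner Cox5a was the 1 wide form below 0, at -0.07 (SE 0.16), and overlapped between areas.

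Where a subunit position has a wide and a restricted gene, the wide one had the higher difference over all arrays. No such pair was tested against each other, and at Cox8 the order turned when some arrays were left out. At the Cox4 position Cox4i1 was at 0.43 and Cox4i2, the form of lung that responds to low oxygen, at 0.04 (SE 0.12). At Cox6b, Cox6b1 was at 0.49 and the testis form Cox6b2 at -0.13 (SE 0.31). At Cox7a, Cox7a2 was at 0.32 (SE 0.18) and the muscle and heart form Cox7a1 read -0.16 and 0.16 against -0.13 and 0.13, a difference within 0.01 of 0. At Cox6a, Cox6a1 was at 0.16 (SE 0.30) and the muscle form Cox6a2 at -0.24 (SE 0.18). The values at Cox8 were closer, 0.17 (SE 0.14) for Cox8a, 0.08 (SE 0.17) for the muscle form Cox8b and 0.12 (SE 0.15) for the testis form Cox8c. Both restricted forms overlapped, while Cox8a, at -0.05 and 0.13 against -0.06 and -0.19, was just clear of overlap. Each of the 3 Cox8a probe sets overlapped on its own. The 2 bright ones gave 0.07 and 0.08, and the dimmer one 0.35, with -0.65 on long bone array 2. Without trabecular array 2 Cox8a was at 0.08, below Cox8b at 0.24 and Cox8c at 0.25. Without long bone array 2 they were at 0.10, 0.17 and 0.11. Ndufa4l2, the Ndufa4 relative induced in low oxygen, read -0.05 and -0.10 against 0.36 and 0.05, a difference of -0.28 (SE 0.16, 95% interval -0.69 to 0.14). It stood opposite to Ndufa4, with no overlap in either gene. The skeletal muscle marker list had a median of 0.06 in the same arrays.

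**Figure D5:**
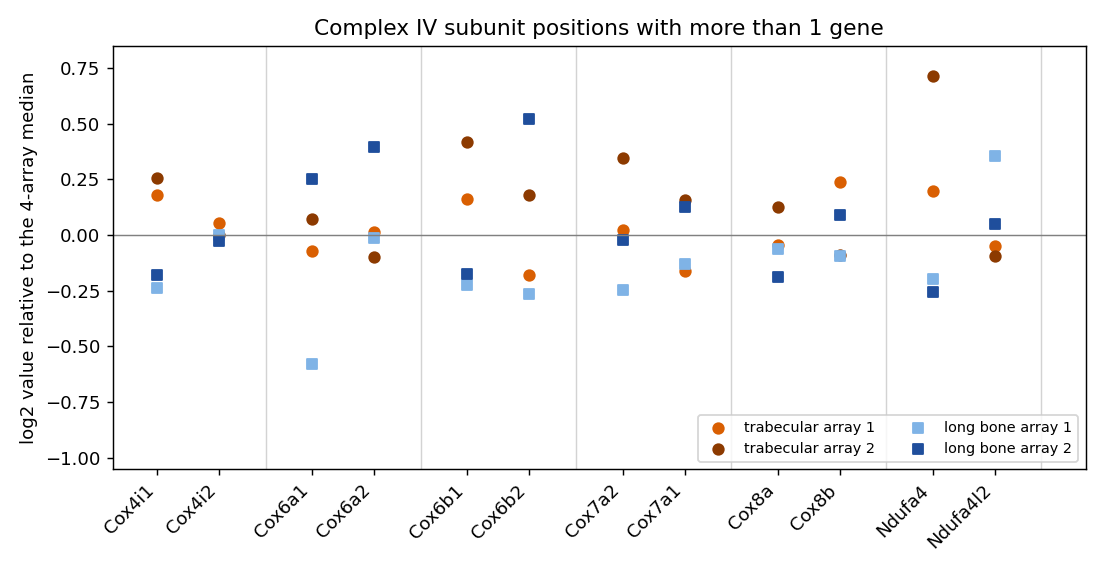
Log2 values on each array, relative to the 4-array median, at the complex IV subunit positions with a widely expressed gene (left of each pair) and a tissue-restricted relative (right), with circles for trabecular and squares for long bone arrays. Arrays of the areas lie apart in Cox4i1, Cox6b1, Cox7a2, Ndufa4 and, narrowly, Cox8a, are reversed in Ndufa4l2 and overlap in Cox6a1, Cox4i2, Cox6a2, Cox6b2, Cox7a1 and Cox8b; with arrays centred on the reference genes Cox7a2, Cox6a1, Cox8a, Cox4i2 and Cox8b are below 0 too.

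Complex IV assembly genes insert copper and haem or guide the first subunits. Of 20 listed 18 were measured, 15 higher and 0 called. There were 10 higher with no overlap, 55.6% against 29.9% of all genes. The median was 0.33, or -0.08 with arrays centred on the reference genes. Pet100, an assembly factor, read 0.28 and 0.51 against -0.28 and -0.55, a difference of 0.82. Coa5 differed by 0.73, the copper chaperone Sco1 by 0.58 and Surf1, the gene of a form of Leigh syndrome, by 0.55. All 4 separated the areas. Their values lay within the range of the structural subunits.

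Complex V, the ATP synthase, was divided between its catalytic head and the rest. Over 17 genes the median was 0.19, or -0.21 with arrays centred on the reference genes. Of these genes 12 were higher, 6 of them with no overlap, 35.3% against 29.9% of all genes. The median was 0.11 without trabecular array 2 and 0.06 without long bone array 1. The 5 genes of the F1 head and its central stalk had a median of 0.34, all higher, 3 with no overlap. The other 12, of the membrane ring, the outer stalk and the dimer contacts, had a median of 0.07, with 7 higher and 3 with no overlap, and -0.03 without long bone array 1. The head and the rest were not tested against each other. Atp5e, the epsilon subunit of the central stalk, read 0.09 and 0.38 against -0.70 and -0.09, a difference of 0.62 (SE 0.25, 95% interval -0.05 to 1.30). Without long bone array 1, its lowest, the difference was 0.32. Atp5a1, the alpha subunit, read 0.09 and 0.36 against -0.15 and -0.26, a difference of 0.43 (SE 0.15), and Atp5b, the catalytic beta subunit, 0.10 and 0.20 against -0.10 and -0.27, a difference of 0.34 (SE 0.13). Atp5c1, the gamma subunit that turns within the head, overlapped, at 0.14 (SE 0.20). The brighter Atp5c1 probe set gave 0.47 and the dimmer one -0.18.

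Outside the head Atp5h, subunit d of the outer stalk, stood apart, with 0.13 and 0.37 against -0.13 and -0.46, a difference of 0.54 (SE 0.18). The 3 genes of the c ring, which make the same mature protein, did not go together. Atp5g3 read 0.06 and 0.16 against -0.06 and -0.16, a difference of 0.22 (SE 0.13), while Atp5g2 was at -0.06 (SE 0.12) and Atp5g1 at -0.20 (SE 0.32). Only Atp5g3 of these had no overlap, and the bright Atp5g1 probe set alone gave 0.13. The 3 Atp5g2 probe sets ran from -0.26 to 0.33. Atp5k, Atp5pb and Atp5j2, subunits of the membrane part and outer stalk, lay between -0.04 and 0 with arrays that overlapped. The 2 Atp5pb probe sets, both bright, went opposite ways with no overlap, at -0.35 and 0.28. Those of Atp5j2 ran from -0.33 to 0.40. Atp5l had the widest spread of the long bone arrays, at -0.74 and 0.70, around a difference of 0.02 (SE 0.49). Of the assembly and inhibitor genes of complex V, 4 were measured, 1 higher and 0 called, with a median of -0.15. Atpaf1, which helps the beta subunit into the head, read -0.27 and -0.04 against 0.20 and 0.23, a difference of -0.37.

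Genes that feed, regulate or use the chain had medians from -0.15 to 0.33 by list, and 0 of them were called. At an unadjusted p under 0.05 in limma, 10.8% of all genes were higher. The higher genes were 4 of 18 in complex IV assembly, 2 of 7 in complex I assembly and 2 of 12 in biogenesis. They were 1 of 6 in complex III assembly, 1 of 12 in the TCA cycle and 1 of 9 carriers. The complex II and V lists had 0. With arrays centred on the reference genes the list medians ran from -0.55 to -0.08. Of the TCA cycle genes 10 of 12 were higher, and their median was 0.19. Over all genes the median was 0.03, with 54.6% higher. With only probe sets at 8 and above, it was 0.20 over all genes, with 6088 of 8811 higher. All 12 TCA cycle genes and 10 of 12 biogenesis regulators had such a probe set. Cs, citrate synthase, read 0.24 and 0.28 against -0.29 and -0.48, a difference of 0.65, and Dlst of the oxoglutarate dehydrogenase complex differed by 0.51. Among regulators of mitochondrial biogenesis 10 of 12 were higher, by a median of 0.10. Gabpa, whose motif is described above, read 0.38 and 0.29 against -0.26 and -0.81, a difference of 0.87. Nrf1 was at 0.10, Ppargc1a, the main coactivator of the programme, at 0.02, and its relative Ppargc1b at -0.42. Tfam, which packs and transcribes mitochondrial DNA, was at 0.33 and Tfb2m, its partner at the promoter, at 0.56. Of the carriers 5 of 9 were higher, with a median of 0.02. The porins Vdac1 and Vdac2 of the outer membrane differed by 0.59 and 0.74, while Slc25a4, an ADP/ATP carrier of muscle and heart, differed by -0.99 and overlapped, with -0.71 and 0.05 against -0.04 and 1.36.

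Probe sets of 1 gene were not always alike. Of the 52 members with more than 1 probe set, 32 had every probe set higher in the trabecular samples and 19 had probe sets that differed in sign. In 18 the probe sets lay over 0.5 apart. Probe sets that by design can bind other transcripts were 48 of 184, and 39 of them were higher, against 112 of the other 136. Their median difference was 0.24, against 0.27. Respiratory genes have many processed pseudogenes, so probe sets of the small subunits may read more than their gene.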

How the data were processed

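Sorted marrow cells of 2 areas were measured on 4 arrays. Total RNA was extracted, amplified and hybridised, per the labels' protocols. Probe sets were used under their mouse annotation, although the series' design text speaks of a human array. The deposited log2 values come from RMA, per the submitters' processing notes, with no version, and the authors centred each probe set on its 4-array median (0 in all 45101). The log base is not given in the sources used here, and RMA works in log2. Each array's RNA integrity and yield are not known, and the number of arrays limits the precision.

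Of 45037 probe sets without controls, 34945 name 1 gene, 932 several and 9160 none. Of the first, 34741 matched RefSeq of GRCm38.p6 by gene ID, with 0 symbols changed. Genes were fitted by lmFit and eBayes of limma 3.58.1 (R 4.3.3) without a block, on 2 residual and 2.50 prior degrees of freedom, and adjusted with Benjamini-Hochberg over 18193 genes. The fit was tested on simulated data. Alternatives were the median of probe sets, leaving out probe sets that can bind other transcripts, 3 other scalings, a filter on level, a replicate block, ordinary statistics and leaving out each array.

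The members and lists were chosen with earlier results of these data known. Named members are, per complex, up to 4 with the largest difference without overlap, all below 0, those with a paralog at their position or with probe sets over 0.5 apart, complex II, Cyc1 and Cycs, 54 in all. Other named genes, roles, and the divisions into core and accessory, head and rest, and wide and restricted forms were chosen after values were seen.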

Additional observations from a re-analysis of the deposited data

How the results depend on the processing

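With each array centred on the reference genes the median was -0.14 for all members. It was -0.13 for complex I subunits, -0.10 for its assembly factors, 0.00291 for complex II and -0.0707 for complex III. The median was -0.11 for cytochrome c, -0.28 for complex IV and -0.21 for complex V. There were 7 members higher with no overlap, a count not taken over all genes. Under the other scalings, gene summaries and the level filter the members' median lay between 0.26 and 0.33 and stayed above 0. With the level filter the members were at 0.27, with 69 of 79 higher. The median of all genes rose under that filter, from 0.03 to 0.20, with 6088 of 8811 higher. Without probe sets that can bind other transcripts complex II had a median of 0.64 and complex V of 0.042. Quantile normalization gave 0.38 for complex II, and the level filter gave 0.35 for complex II and 0.32 for complex IV. Leaving out each array gave 0 to 1 members called, 45 to 73 higher with no overlap, and medians of 0.29 to 0.41 for complex II, 0.0943 to 0.56 for complex III, 0.0529 to 0.26 for complex IV and 0.0586 to 0.26 for complex V. The cause of these shifts was not tested. With 1 array left in an area, no overlap is easier to reach for any gene. The counts of 45 to 73 were not taken over all genes and cannot be set against the 42 of the main fit. The ordinary statistics called 0 members. With the replicate number as a block, 0 members were called and 13 had an unadjusted p under 0.05. Arrays of the same number deviated against each other over all 45037 probe sets (correlation -0.18) but together over the 92 members (0.24), and the crossed pairing, chosen after seeing the data, called 0 with 16 at an unadjusted p under 0.05. The numbers were not taken as pairs.

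Of 636 differences of named members under an alternative, 64 turned in sign, in 33 members. With arrays centred on the reference genes these were Ndufaf5 at -0.0773, Sdhb at -0.0607, Uqcrq at -0.0707, Atp5b at -0.0601, Atp5c1 at -0.26, Atp5g3 at -0.19, Cox4i2 at -0.36, Cox5b at -0.0731, Cox6a1 at -0.24, Cox7a2 at -0.083, Cox8a at -0.24, Cox8b at -0.33, Cox8c at -0.29, Cyc1 at -0.12, Cycs at -0.11, Ndufa12 at -0.021, Ndufb11 at -0.17, Ndufb9 at -0.0924 and Sdha at -0.31. Centring on array medians put Atp5j2 at 0.00388 and Cox7a1 at 0.00381. The median of probe sets put Atp5j2 at 0.0704, Ndufab1 at 0.039 and Ndufb2 at 0.00179. The level filter put Sdhc at -0.0809, Atp5g1 at 0.13 and Atp5j2 at 0.16, and quantile normalization put Atp5j2 at 0.0582. Without probe sets that can bind other transcripts there were Atp5c1 at -0.18, Atp5g2 at 0.0332, Atp5j2 at 0.0359, Atp5k at 0.0289, Cox8c at -0.0708, Ndufab1 at 0.00488 and Sdha at -0.00297. Leaving out each array gave ranges of -0.078 to 0.37 for Atp5c1, -0.57 to 0.17 for Atp5g1, -0.26 to 0.26 for Atp5j2, -0.19 to 0.14 for Atp5k, -0.11 to 0.0277 for Atp5pb, -0.20 to 0.0493 for Cox5a, -0.25 to 0.58 for Cox6a1, -0.52 to 0.26 for Cox6b2, -0.16 to 0.16 for Cox7a1, -0.17 to 0.0238 for Cox7b2, -0.0859 to 0.24 for Cox8b, -0.0147 to 0.25 for Cox8c, -0.0473 to 0.61 for Cyc1, -0.22 to 0.12 for Ndufab1, -0.72 to 0.23 for Ndufb2, -0.32 to 0.22 for Ndufc1, -0.43 to 0.15 for Ndufc2 and -0.00234 to 0.19 for Sdha.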

Other observations

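A single probe set on the array is annotated to ND5, a core subunit of complex I made from mitochondrial DNA. It read -0.32 and 0.01 on the trabecular arrays and -0.01 and 0.09 on the long bone arrays, a log2 difference of -0.19, so the areas overlapped.

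Of the probe sets annotated to several genes, 10 name a respiratory chain gene and were kept out of the members. Probe sets shared by Ndufs5 and its pseudogene, by Ndufb4 and its relatives and by Ndufs6 and Ndufs6b gave differences of 0.74, of 0.32 and 0.44, and of 0.42. The pair of probe sets shared by Ndufa11 and Ndufa11b gave 0.41 and 0.04.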
